A study of Mus musculus with 4 samples.

Results

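The genes described here carry the names Spata (spermatogenesis associated) or Tex (testis expressed) followed by a number. They were measured in testes of 24-day-old mice with and without RFX2, a transcription factor needed for round spermatids to develop further. Of 37 such symbols in the files, 5 were left out by the rule (Spata16, Spata22, Tex11, Tex12 and Tex15), and 31 of the other 32 reached 1 FPKM in 2 or more of the 4 samples. FPKM counts fragments per kilobase of gene, scaled to the mapped fragments of the sample, so levels can be compared between genes. These 31 genes, 16 Spata and 15 Tex, are among 12985 genes that met the same filter. The gene nearest above the filter was Spata13, with FPKM of 1.30 and 0.926 in mutants against 0.949 and 1.39 in controls. Tex28 lay just under it, with 0.762 and 1.28 in mutants against 0.571 and 0.404 in controls, and was not tested.

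RNA came from total testicular cells of 2 Rfx2 mutant (rfx2-/-) and 2 control males aged 24 days. In the mutant allele, a neomycin cassette replaces the exons that encode the DNA-binding domain, and all mutants descend from a single embryonic stem cell clone. The labels call the controls wild type and the strain DBA, whereas the methods of the study describe heterozygous controls and a background mixed from C57BL/6 and the strain of the stem cells. If the controls are heterozygous, both groups carry the mutant allele. The study describes the replicates as independent biological samples.

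Spata and Tex are naming series rather than gene families. A gene received such a number because its transcript was found in testis or changed during spermatogenesis, so the proteins are mostly unrelated. Some act in building the sperm flagellum and neck, some in mitochondria, some in the bridges that join sister germ cells, and others work in most cells of the body. At this age the first wave of spermatogenesis has filled the tubules with spermatocytes and round spermatids, the haploid cells that will form the flagellum.

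RFX proteins bind the X-box, a motif of a pair of inverted arms separated by 0 to 3 bases. The following promoters belong to the genes with the lowest mutant levels relative to control, and to the single gene of the group whose promoter held an X-box without mismatch. Sequences are from the RefSeq promoter table (GRCm38.p6), and each matched NCBIM37 (mm9), the build of the files, at a single place, from which the coordinates are taken. Capitals mark a match to the X-box with at most 1 mismatch, and each line runs 5′ to 3′ on the strand of the gene.
Tex21, chr12:77347734-77347983, minus strand, the 250 bases before the start: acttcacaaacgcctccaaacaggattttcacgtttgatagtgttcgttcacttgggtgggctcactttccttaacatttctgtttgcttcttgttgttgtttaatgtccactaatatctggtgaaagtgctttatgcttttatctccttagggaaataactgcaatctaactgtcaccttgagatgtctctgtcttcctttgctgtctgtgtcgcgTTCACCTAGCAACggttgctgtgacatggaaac
Spata18, chr5:74042369-74042618, plus strand, the 250 bases before the start: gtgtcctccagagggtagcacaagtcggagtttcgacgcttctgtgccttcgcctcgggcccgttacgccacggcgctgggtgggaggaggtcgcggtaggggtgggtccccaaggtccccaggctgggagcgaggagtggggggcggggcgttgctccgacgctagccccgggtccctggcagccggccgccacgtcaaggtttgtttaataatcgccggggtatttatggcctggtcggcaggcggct
Spata4, chr8:55685884-55686133, plus strand, the 250 bases before the start: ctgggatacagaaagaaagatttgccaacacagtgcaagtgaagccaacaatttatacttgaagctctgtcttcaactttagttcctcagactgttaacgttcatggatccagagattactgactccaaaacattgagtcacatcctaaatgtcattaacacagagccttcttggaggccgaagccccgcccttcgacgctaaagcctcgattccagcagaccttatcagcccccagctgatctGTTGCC
Tex9, chr9:72339776-72339805, minus strand, 30 bases around the match: gatgtacgGTCACCACGGCAACcgcatcgc

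The Tex9 match, GTCACCACGGCAAC, has no mismatch and lies from -31 to -18 relative to the RefSeq start. In the GENCODE annotation of mm9 the most upstream Tex9 start lies further out, and the same bases fall from 169 to 182 after it. The match of Tex21, TTCACCTAGCAAC, has 1 mismatch and lies from -33 to -21. In Spata4 the match with 1 mismatch, GTTGCCATAGAAAC, runs from -6 to 8 across the start, so its last bases are not in the line above. No match, even with 1 mismatch, was found in the window searched for Spata18. The RefSeq table (250 bases before to 50 after the start, both strands) held a promoter for 26 of the 31 genes, and not for Spata2L, Spata24, Tex13a, Tex22 and Tex24. An X-box without mismatch was found in 1 of these 26 (3.85%), against 1.75% of all 27025 symbols in the table. With 1 mismatch allowed it was found in 8 of 26 (30.8%), namely Spata4, Spata5, Spata7, Tex9, Tex10, Tex14, Tex21 and Tex264, against 12.7% of all symbols. The left arm GTTGCC or its reverse complement GGCAAC, which can be part of an X-box, was found in 3 of 26 (11.5%), Spata4, Tex9 and Tex19.2, against 14.1% of all symbols. Within 1000 bases on each side of the most upstream start in mm9, Tex9 and Spata13 held an X-box without mismatch, 2 of 31 genes (6.45%), against 4.60% of the tested genes with a start. A match is a description of the letters and shows no binding.

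The files gave 12557 to 12942 genes per sample at an FPKM of at least 1, and the bounds of their confidence intervals corresponded to 17.2 to 20.4 M fragments per sample. The level of Rfx2, the targeted gene, was 36.7 and 39.8 in mutants against 123 and 89.4 in controls (log2 fold change -1.43, standard error 0.19, adjusted p = 0.00617 from limma). FPKM covers the gene as a whole, so transcripts without the replaced exons still count. Markers of 8 testis cell types were found, and none of those in the files was at 0 in any sample. Mutant 1 stood apart in its 13 elongating spermatid markers, whose sum was 1746 FPKM. The sum was 7678 FPKM in mutant 2, 8765 in control 1 and 6033 in control 2. Each of these 13 markers was lower in mutant 1 than in both control samples, whereas in mutant 2 this held for 2 of 13. The list is named for a cell type, but its sums are RNA levels and not counts of cells. The study saw no elongating spermatids in mutant testes. By RT-PCR it found no difference in Prm1, Prm2, Tnp1 and Tnp2 mRNA between the genotypes.

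**Figure D1:**
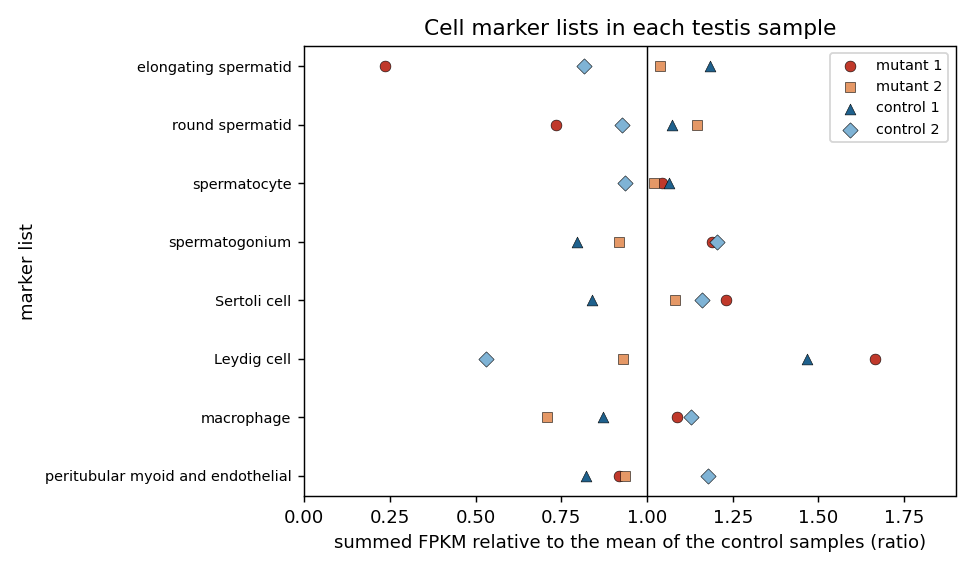
Summed FPKM of each cell marker list in each sample, as a ratio to the mean of the control samples; each point is 1 sample and the vertical line marks a ratio of 1. Mutant 1 sits at 0.236 for elongating spermatid and 0.734 for round spermatid markers, while mutant 2 sits at 1.04 and 1.15.

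To ask which Spata and Tex genes depended on RFX2, limma, a linear model with a spread moderated across genes, was fitted to log2(FPKM + 1) of all 12985 genes, and p-values were adjusted over all of them by the Benjamini-Hochberg method. Adding 1 understates the fold change of low genes. Tex21 and Spata4 fell in mutant testes (adjusted p under 0.05), which is 2 of 31 genes (6.45%), against 2.52% of all tested genes. None of the 31 was higher at that threshold, against 0.308% of all tested genes. At an unadjusted p under 0.05 from limma, 4 of 31 were lower (Spata18 and Tex9 in addition), against 6.68% of all tested genes, and 1 was higher (Spata2L), against 2.01%. The median log2 fold change was -0.13 over the 31 genes and 0.03 over all tested genes. It was -0.21 over the 16 Spata and 0.05 over the 15 Tex genes. For 23 of the 31 genes the log2 fold change was under 0.3 in size, as it was for 80.9% of all tested genes. It was below 0 for 21 of the 31 (67.7%), against 42.7% of all tested genes, and at least 1 in size for 3 of them (9.68%), against 3.55%. Because mutant 1 stood apart, the counts were also taken without either mutant sample. These fits hold 1 mutant sample, assumed to vary like the control samples, and leave 1 residual degree of freedom, so their calls are given as counts only. Without mutant 1, 3 genes had an adjusted p under 0.05 as lower (Spata4, Spata18 and Tex21), against 3.33% of all tested genes, and the median over the 31 genes was 0.04. Without mutant 2 there were 7 (Spata3, Spata7, Spata9 and Spata19 in addition to those 3), against 7.3% of all tested genes, and the median was -0.24.

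**Figure D2:**
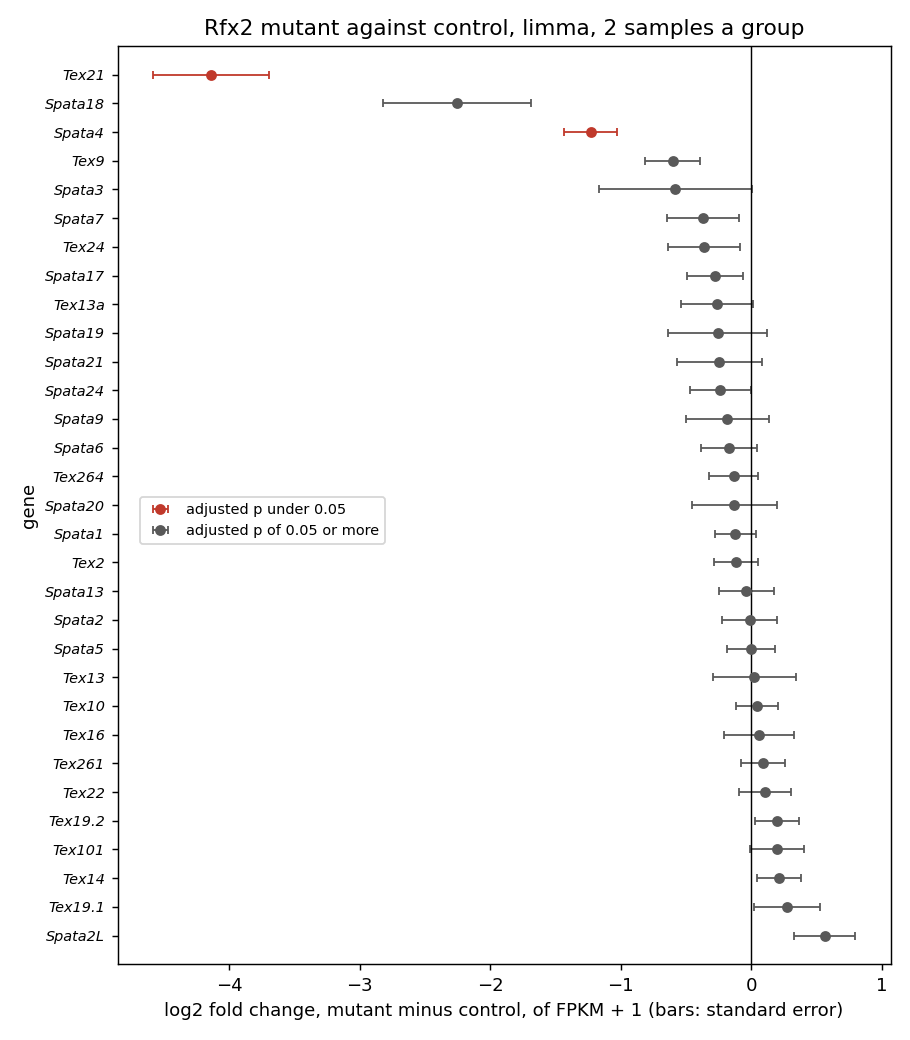
Log2 fold change of FPKM + 1, mutant minus control, for the 31 Spata and Tex genes; points are limma estimates, bars their standard errors (2 samples a group), and red marks an adjusted p under 0.05. Tex21 at -4.14, Spata18 at -2.26 and Spata4 at -1.23 lie away from the other 28 genes, which run from -0.60 to 0.56.

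Tex21 fell the most. Mutant 1 had 4.34 FPKM and mutant 2 had 0.787, whereas control 1 had 58.3 and control 2 had 49.0. Both mutant samples were thus far below both control samples, and the mutant mean was 4.77% of the control mean. The log2 fold change of -4.14 had a standard error of 0.44 (limma, adjusted p = 0.00189). The deposited confidence interval in mutant 2 ran from 0.520 to 1.05 FPKM, so the value was low but above 0. The mutant samples differed from each other more than the control samples did, and with robust eBayes the adjusted p was 0.316. Without the filter on low values it was 0.0555, and the log2 fold change was -4.93 without mutant 1 and -3.35 without mutant 2. Tex21 was lower in mutant 2 than in mutant 1, the opposite order to the elongating spermatid markers. This order rests on an estimated 163 fragments in mutant 1 and 35 in mutant 2, and the part of these markers was not tested. The gene lies at chr12:77299679-77347733 (mm9), where no other annotated gene overlaps it.

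Spata4 was the most abundant gene of the group in control testes, at 594 FPKM in control 1 and 479.9 in control 2. In mutant 1 it was 240.5 FPKM and in mutant 2 it was 214.3 FPKM. The mutant samples were close to each other and both below the control samples, with a mutant mean of 42.4% of the control mean. The log2 fold change of -1.23 had a standard error of 0.21 (limma, adjusted p = 0.0189). This call was lost with median-ratio scaling of the samples (adjusted p = 0.146), without the filter (adjusted p = 0.117), without control 1 (adjusted p = 0.0581) and with a crossed replicate block (adjusted p = 0.0862), while the log2 fold change stayed between -1.38 and -1.08 over all alternatives. Without mutant 1 it was -1.31. Spata4 lies at chr8:55686134-55695451 (mm9), where an annotated gene on the opposite strand overlaps it. Whether the libraries kept strand is not given in the sources used here, so reads from the pair may not be separable.

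Spata18 encodes a protein of mitochondrial quality control. Its FPKM was 4.41 in mutant 1, 22.9 in mutant 2, 55.9 in control 1 and 50.8 in control 2. Both mutant samples were below both control samples, but mutant 2 was 5.19 times mutant 1, whereas the control samples differed by 1.10 times. The log2 fold change of -2.26 had a standard error of 0.57 (limma, adjusted p = 0.112), so the difference did not pass the test. It was -1.18 without mutant 1 and -3.33 without mutant 2. Each of these fits holds 1 mutant sample, so only the effect sizes are given.

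**Figure D3:**
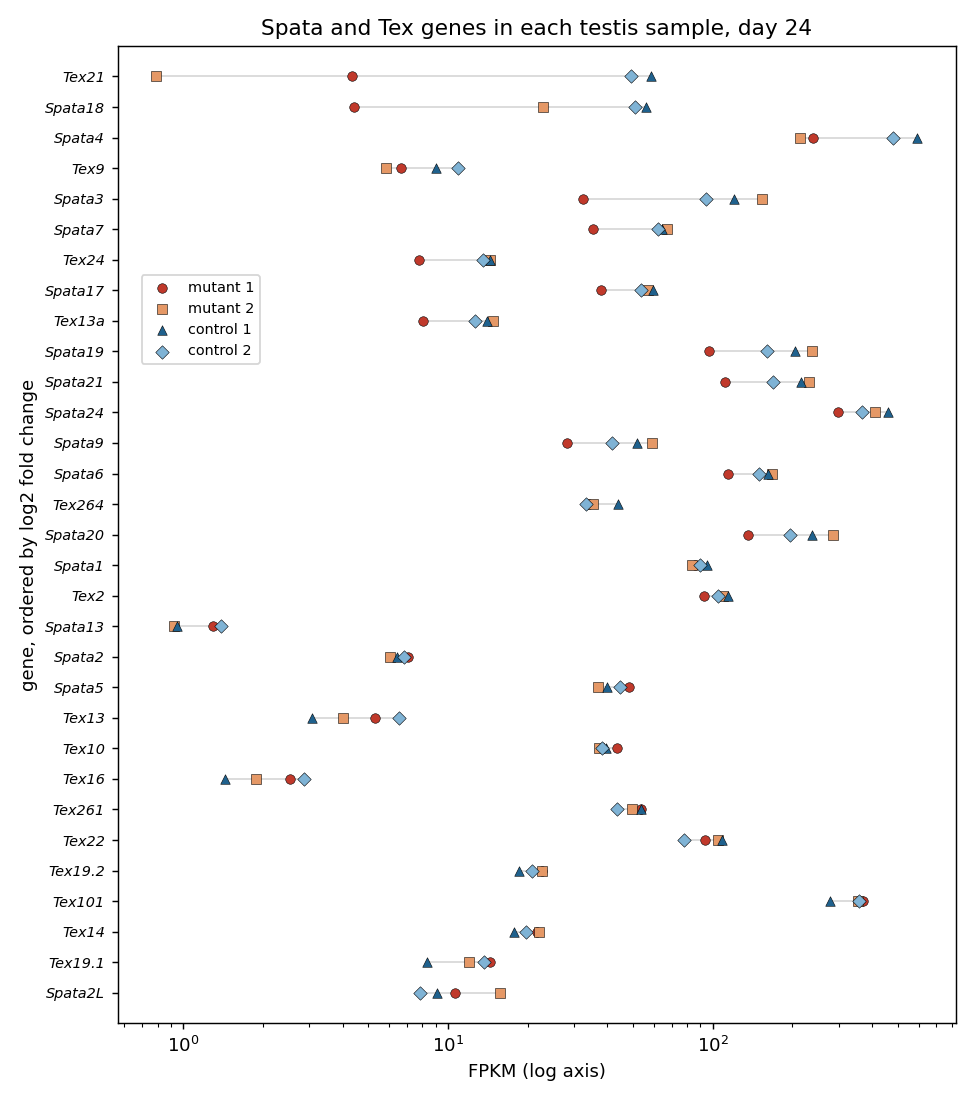
FPKM of the 31 Spata and Tex genes in each sample on a log axis, 1 row a gene, ordered by log2 fold change; each point is 1 sample and the grey line joins the lowest and highest. Tex21, Spata18 and Spata4 show both mutant samples well below both control samples, and from Spata3 downwards several genes are low in mutant 1 alone.

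Outside these 3 genes, Tex9, Spata3 and some others are named because of their values. In this and the later paragraphs, each pair of values gives replicate 1 and then replicate 2. Tex9, the gene with the X-box shown above, had FPKM of 6.64 and 5.81 in mutants against 9.04 and 10.9 in controls. The mutant samples were below the control samples, and the log2 fold change was -0.60 (standard error 0.21 and adjusted p = 0.342, limma), which did not pass the test. The groups did not overlap, with the mutant samples lower, for 5 of the 31 genes (Spata1, Spata4, Spata18, Tex9 and Tex21), against 15.2% of all tested genes. For 3 genes (Spata2L, Tex14 and Tex19.2) they were higher, against 16.3% of all tested genes. The share below was 16.1% and the share above 9.68%, so the first was close to the background. Spata1 shows how small such a gap can be, with 86.1 and 83.7 in mutants against 95.2 and 89.8 in controls.

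Several other genes were low in mutant 1 alone. In 12 of the 31 genes mutant 1 was below both control samples and mutant 2 was not (38.7%), against 10.5% of all tested genes. In 9 of the 31 genes (29%), mutant 2 was in addition at least 1.5 times mutant 1, against 6.45% of all tested genes. These were Spata3, Spata7, Spata9, Spata17, Spata19, Spata20, Spata21, Tex13a and Tex24. The reverse, with mutant 2 low alone, was found in 0 of the 31, against 3.74% of all tested genes. The widest gap was in Spata3, with 32.4 FPKM in mutant 1, 153 in mutant 2, 119.96 in control 1 and 94.6 in control 2. Mutant 2 was 4.72 times mutant 1 and above both control samples. Spata9 had the same order at lower levels, with 28.1 and 59.1 in mutants against 51.9 and 41.6 in controls. In Tex24 mutant 2 was level with the controls, with 7.80 and 14.5 in mutants against 14.5 and 13.6 in controls. The log2 fold change of Spata3 over both mutant samples was -0.58 (standard error 0.59 and adjusted p = 0.9999, limma), so the difference between the genotypes was within its error. The elongating spermatid markers moved in the same way, from 0.236 of the control mean in mutant 1 to 1.04 in mutant 2, and the round spermatid markers from 0.734 to 1.15. Among the 13 round spermatid markers, mutant 1 was below both control samples in 10 and above both in 1 (Zpbp2). The part of these markers in the values of the 9 genes was not tested. In whole testis, fewer cells of a type and less RNA per cell cannot be told apart.

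**Figure D4:**
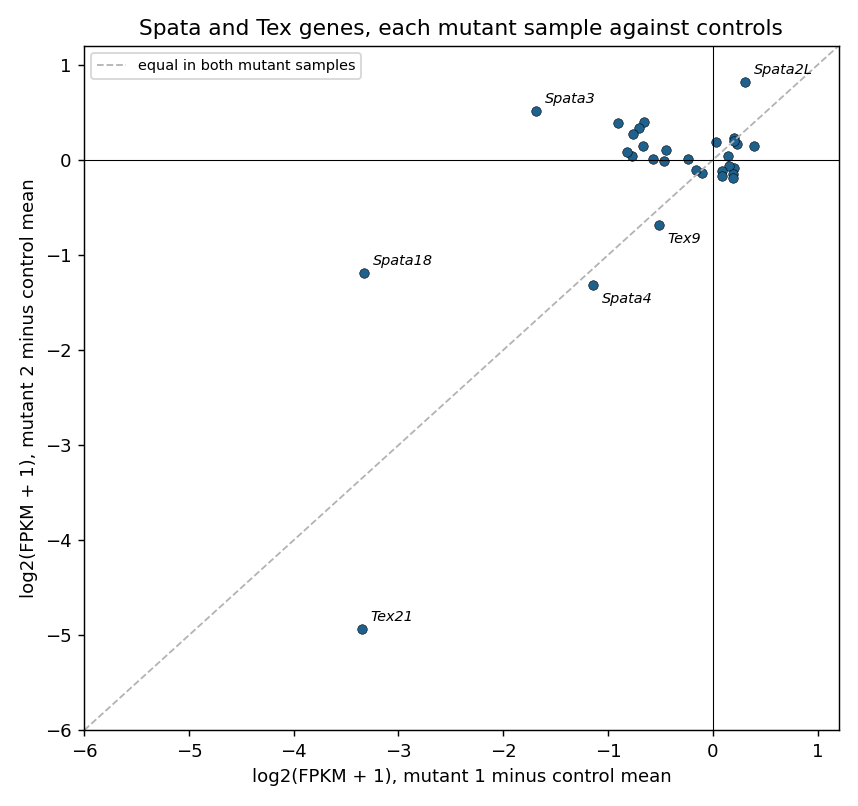
Log2(FPKM + 1) of each mutant sample minus the mean of the control samples, mutant 1 on the horizontal and mutant 2 on the vertical axis; each point is 1 of the 31 genes and the dashed line marks equal values. Spata4 and Tex9 lie near the dashed line, Tex21 lies below it, and Spata18, Spata3 and a cluster of other genes lie above it.

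Among the genes of cilium, flagellum and sperm neck, none of 3 passed the test. Spata6, required for the connecting piece that joins sperm head and tail, had FPKM of 114 and 168 in mutants against 162 and 149 in controls. Spata7 acts at the connecting cilium of photoreceptors. Its FPKM was 35.5 and 67.3 in mutants against 64.4 and 62.4 in controls, so that mutant 2 was level with the controls and mutant 1 was not. Spata17, which carries calmodulin-binding motifs, had 37.9 and 56.9 in mutants against 59.4 and 53.9 in controls. In each of these genes the samples of the genotypes overlapped, and the log2 fold changes ran from -0.37 to -0.17. The mutant 1 level was 0.734, 0.559 and 0.669 of the control mean for Spata6, Spata7 and Spata17, next to 0.734 for the summed round spermatid markers. Of the 13 markers in that sum, mutant 1 was below both control samples in 10 and above both in 1 (Zpbp2). The part of these markers was not tested. Without mutant 1 the log2 fold change was 0.10 for Spata6, 0.09 for Spata7 and 0.01 for Spata17.

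The mitochondrial list held Spata19 beside Spata18. Spata19, a protein of the mitochondrial sheath of the sperm midpiece, had FPKM of 96.5 and 238 in mutants against 205 and 160.3 in controls. The highest and the lowest of its values were thus both in mutant samples (log2 fold change -0.26, standard error 0.38, adjusted p = 0.9999 from limma). Spata18 and Spata19 differed in mutant 2, which was 0.429 of the control mean for Spata18 and 1.30 for Spata19.

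The 4 genes of germ cell bridges, cell surface and retrotransposon control did not pass the test, and their log2 fold changes were all above 0, from 0.20 to 0.27. Tex14, needed for the bridges between germ cells, had FPKM of 21.7 and 22.0 in mutants against 17.8 and 19.6 in controls. Tex101, a membrane-anchored glycoprotein of germ cells, was abundant, with 369.8 and 355 in mutants against 279 and 357 in controls. Tex101 thus overlapped between the genotypes, whereas Tex14 did not (log2 fold change 0.22, standard error 0.17, adjusted p = 0.9999 from limma). Tex19.1, which restrains retrotransposons in germ cells, and Tex19.2 are neighbouring paralogs, and reads may be shared between them. Tex19.1 had 14.4 and 12.0 in mutants against 8.32 and 13.7 in controls. Tex19.2 had 22.7 and 22.6 in mutants against 18.5 and 20.8 in controls. These genes did not show the deficit of mutant 1, where their levels were 1.16 to 1.31 of the control mean. The spermatocyte markers were at 1.04 of the control mean in mutant 1, the spermatogonium markers at 1.19 and the Sertoli cell markers at 1.23. The Leydig cell markers were at 1.665, the macrophage markers at 1.09, and the peritubular myoid and endothelial markers at 0.918. The control samples ran from 0.935 to 1.065 for spermatocyte, 0.796 to 1.204 for spermatogonium and 0.84 to 1.16 for Sertoli cell markers. They ran from 0.532 to 1.468 for Leydig cell, 0.872 to 1.128 for macrophage and 0.822 to 1.178 for peritubular myoid and endothelial markers. Mutant 1 was thus outside the controls for the Sertoli and Leydig cell lists only. Insl3 alone gave 326 of the 425 FPKM of the Leydig sum in mutant 1. The part of any of these markers in the values of the 4 genes was not tested.

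Of the 9 genes listed as active in many tissues, none passed the test. Spata5, an ATPase of ribosome maturation, had FPKM of 48.3 and 36.9 in mutants against 40.1 and 44.5 in controls. Tex10, a nuclear protein of ribosome assembly, had 43.5 and 37.3 in mutants against 39.7 and 38.3 in controls. For both genes the mean was nearly equal in the genotypes, with log2 fold changes of 0.00 and 0.05. Tex2, a lipid transfer protein of the endoplasmic reticulum, had 92.6 and 109.7 in mutants against 114 and 104 in controls. Tex264, a receptor for autophagy of the endoplasmic reticulum, had 34.1 and 35.5 in mutants against 44.1 and 33.2 in controls. Tex261 had 53.5 and 49.8 in mutants against 53.6 and 43.7 in controls. These 3 genes of or near the endoplasmic reticulum overlapped between the genotypes. Spata2, an adaptor of the deubiquitinase CYLD, had 7.09 and 6.03 in mutants against 6.42 and 6.80 in controls. Spata2L, its relative, had 10.7 and 15.7 in mutants against 9.12 and 7.83 in controls. It was the gene with the highest log2 fold change of the group, 0.56 (standard error 0.23, adjusted p = 0.525 from limma), and both mutant samples lay above both control samples. Spata20, a protein with a thioredoxin-like domain, had 136 and 285 in mutants against 238 and 196 in controls, and was low in mutant 1 alone. Spata13 was near the filter in all samples.

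Among the remaining abundant genes, Spata24 had 298 and 409.9 in mutants against 462 and 368 in controls. Spata21, which carries calcium-binding motifs, had 112 and 232 in mutants against 216 and 169 in controls. Mutant 1 was the lowest sample in both. Tex22 had 93.7 and 105 in mutants against 109 and 77.7 in controls, where the control samples enclosed the mutant samples. The control means of the 31 genes ran from 1.17 FPKM for Spata13 to 537 for Spata4, with 9 genes at 100 or more, 16 from 10 to 100 and 6 under 10.

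Tex13, Tex13a and Tex16 lie on chromosome X, and the other genes on autosomes. Tex13 had FPKM of 5.32 and 4.0 in mutants against 3.07 and 6.51 in controls. Tex16 had 2.54 and 1.89 in mutants against 1.44 and 2.86 in controls. In both genes control 2 was the highest and control 1 the lowest sample, a spread within the control group of 2.12 times for Tex13 and 1.99 times for Tex16. The spermatogonium markers summed to 198 and 152 in mutants against 132 and 200.04 in controls. Marker by marker, control 1 was the lowest sample for 7 of the 10, whereas control 2 was the highest for 4 and mutant 1 for 5. The peritubular myoid and endothelial markers, with sums of 73.8 in control 1 and 105.7 in control 2, also had their lowest and highest sums in the control samples. For the 10 Sertoli cell markers, control 1 was the lowest sample for 9, control 2 the highest for 6 and mutant 1 for 4. Their sum was lowest in control 1 and highest in mutant 1. Other lists went the opposite way, with higher sums in control 1 than in control 2. These sums were 375 and 136 for Leydig cell markers and 8765 and 6033 for elongating spermatid markers. They were 1452 and 1251 for round spermatid markers and 3863 and 3391 for spermatocyte markers. Macrophage markers were lower in control 1, at 37.0 against 47.8. The part of any of these marker lists in the values of Tex13 and Tex16 was not tested. Tex13a had 8.03 and 14.8 in mutants against 14.1 and 12.7 in controls, low in mutant 1 alone. Reads may be shared between Tex13 and Tex13a, which are related in sequence.

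Other genes named for sperm or testis (Spag, Spaca, Spef, Spem, Tcte, Tsga and Tcp with a number) were read from the same fit for comparison. Of 33 such symbols 30 were tested. At an adjusted p under 0.05 from limma, 3 of them fell (Spag8, Spag17 and Spef2), against 2.52% of all tested genes. None was higher at that threshold or at an unadjusted p under 0.05. Their median log2 fold change was -0.03, against -0.13 for the Spata and Tex genes. In 8 of the 30, mutant 1 was low alone and mutant 2 was at least 1.5 times mutant 1. This held for 9 of the 31 Spata and Tex genes and for 6.45% of all tested genes. Of the 8, Spaca1, Spag4 and Spem1 are themselves among the round or elongating spermatid markers. The difference between these other genes and the Spata and Tex genes was not tested.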

How the data were processed

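Total testis RNA of 2 Rfx2 mutant and 2 control mice was sequenced on an Illumina instrument. Alignment by the authors used TopHat 2.0.6 and mm9, followed by Cufflinks with the UCSC annotation as guide. The deposited FPKM, with confidence bounds, are scaled for length and depth in each sample separately.

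Entries sharing a symbol were summed (22311 genes). The 12985 genes that reached 1 FPKM in 2 or more of the 4 samples were tested. Genotypes were compared with limma 3.58.1 (R 4.3.3; lmFit, eBayes with a mean-variance trend) on log2(FPKM + 1), two-sided, with Benjamini-Hochberg adjustment over all tested genes and a threshold of 0.05. Cuffdiff, which the study used on pooled reads, needs the reads. The functions were tested on simulated data. Fragment numbers were estimated from the confidence bounds. Positions came from GENCODE on NCBIM37 and promoters from RefSeq.

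The genes and lists were chosen with earlier results of these data known. Genes were named if they passed the test, if they changed at least 2-fold without overlap of the groups, or if they were in a role list. Also named were the 5 with the highest mean FPKM and the 5 with the smallest change at a mean FPKM of at least 10. Spata1, Spata3, Spata9, Tex9, Tex13, Tex13a, Tex16 and Tex24 met none of these rules and were named because of their values or positions. Alternatives were pseudocounts of 0.1 and 0.01, no filter, a filter at 5 FPKM, quantile or median-ratio normalization, robust or trend-free eBayes, blocking on the replicate number, the highest entry per symbol, each replicate left out, and for X-boxes a gap of 1 to 2 bases and 1 mismatch. The crossed replicate block and the mm9 window of 1000 bases were added after seeing the data. Other software was python 3.11.15 with pandas 2.3.3 and numpy 2.4.6.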

Additional observations from a re-analysis of the deposited data

How the results depend on the processing

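Of the 31 Spata and Tex genes, 2 were lower in mutant testes. With no filter 0 passed (limma), with median-ratio scaling 1 (Tex21), with robust eBayes 1 (Spata4), and with each sample left out in turn 1 to 7. Over all tested genes, the 327 lower became 199 with no filter, 202 with a filter at 5 FPKM, 216 with median-ratio scaling and 167 to 948 with a sample left out. The 40 higher became 17, 17 and 16 under the same settings, 67 with robust eBayes and 13 to 162 with a sample left out. The extremes for lower genes were without control 1 and without mutant 2. The other genes named for sperm or testis gave 3 to 7 lower with a sample left out.

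Samples with the same replicate number did not deviate together (correlation -0.154 across 12985 genes and -0.418 over the 31 Spata and Tex genes). With 2 samples a group, this cannot show whether the numbers pair the samples. A replicate block gave 3 lower Spata and Tex genes (Spata18 in addition), 5 lower among the other genes named for sperm or testis, and 525 lower and 70 higher over all tested genes. The crossed block, chosen after seeing the data, gave 1 lower Spata or Tex gene (Tex21, with Spata4 lost), and 266 lower and 28 higher over all tested genes. Each block fit leaves 1 residual degree of freedom, as do the fits with a sample left out, so the block counts should not be read as evidence. The standard error of Spata18 was 0.25 with the replicate block, against 0.57 in the main fit.

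Over the 31 genes, the median of the log2 fold changes ranged from -0.24 to 0.041 with a sample left out. Genes with an X-box numbered 8 with 1 mismatch and 2 in the wider mm9 window, chosen after seeing the data. With quantile normalization, the log2 fold change became 0.043 for Spata13, 0.044 for Spata2 and 0.061 for Spata5. With a sample left out, the log2 fold change changed sign in these genes, none of which passed the test with all samples: Spata13 -0.18 to 0.11, Spata17 -0.57 to 0.0086, Spata19 -0.90 to 0.39, Spata2 -0.11 to 0.089, Spata20 -0.66 to 0.40, Spata21 -0.77 to 0.28, Spata3 -1.69 to 0.52, Spata5 -0.19 to 0.19, Spata6 -0.44 to 0.10, Spata7 -0.82 to 0.085, Spata9 -0.70 to 0.34, Tex10 -0.062 to 0.15, Tex13 -0.42 to 0.47, Tex13a -0.67 to 0.14, Tex16 -0.27 to 0.39, Tex19.1 -0.057 to 0.61, Tex2 -0.24 to 0.0051, Tex22 -0.13 to 0.35, Tex24 -0.77 to 0.044, Tex261 -0.053 to 0.24 and Tex264 -0.33 to 0.065. The cause of these differences was not tested. With 2 samples a genotype, spread rests on few degrees of freedom, and genes of few fragments are measured imprecisely.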
